A study of Gallus gallus with 27 samples.

Results

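The 7 transcription factors MYOD1, MYOG, MYF5, MYF6, PAX7, PAX3 and MEF2C, which act in skeletal muscle formation, were followed through 27 RNA libraries of chicken (Gallus gallus) fibroblast cultures and fat. They were taken by gene symbol from a normalized expression table. All 7 had a row among its 14161 rows, and each symbol matched 1 protein-coding gene of the RefSeq chicken annotation GRCg7b. The series concerns chicken fibroblasts that became immortal without genetic modification, for growing cultured chicken meat.

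Groups held 3 biological replicates each, per the series' design. FAT carried the label Fat and the breed Israeli Baladi. The sources used here do not say whether it was tissue or cells turned into fat-storing cells in culture. SCF4 and SCF2 were spontaneously immortalized, anchorage-independent embryonic fibroblasts of lines 4 and 2. Their source name and breed field gave opposite breeds, so both lines are named by number. CF4 (Israeli Baladi) and CF2 (Broiler Ross 308) were immortalized fibroblasts, and no label of theirs said anchorage-independent. CEF4 (Israeli Baladi) and CEF2 (Broiler Ross 308) were primary embryonic fibroblast cultures of the same line numbers. SDF1 was the anchorage-independent counterpart of DF1, an established immortal fibroblast line from East Lansing Line 0 embryos. The labels of FAT, CF4, CF2, SDF1 and DF1 also described a medium with oleic acid and soy lecithin for immortalized fibroblasts, without naming the libraries that had been in it.

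In vertebrate embryos PAX3 and PAX7 mark muscle progenitors, and PAX7 also marks the satellite cells that keep muscle able to regenerate. MYF5 and MYOD1, basic helix-loop-helix (bHLH) factors, commit such cells to the muscle lineage. MYOG, a further bHLH factor, starts terminal differentiation and fusion, and MYF6, also called MRF4, acts in determination and in maturing fibres. The bHLH factors bind DNA with E protein partners and act together with MEF2 proteins such as MEF2C, which is also used in heart, blood vessel and blood cells. MYOD1 is known for its ability to turn fibroblasts into muscle cells when it is forced on. The genes MYF5 and MYF6 are neighbours in the RefSeq list, with 0 genes listed between them.

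The values were reads divided by 1 factor per library, called normalized reads here. Libraries held 4612848 to 10435094 reads in FAT and 12257468 to 28747324 in the cultured groups. Thus 1 read was worth 1.521 to 3.162 normalized reads in FAT and 0.294 to 0.725 elsewhere. A group with 0 reads could still have held 3 reads (the floor), worth 2.28 normalized reads in FAT and at most 0.526 in a cultured group. Floors and fold intervals cover counting error only, since reads without molecular identifiers are not independent molecules. Values were not divided by gene length, so levels are compared between libraries and not between genes. A pair of libraries stood apart from their groups. FAT replicate 3 correlated at 0.915 and 0.932 with replicates 1 and 2, which correlated at 0.956 with each other, on log2 values over genes. DF1 replicate 3 correlated at 0.956 and 0.954 with the other DF1 libraries, which reached 0.994.

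MYOD1, MYOG, MYF5, MYF6 and PAX7 were present together in FAT replicate 3 and in all 3 CEF2 libraries, and FAT replicates 1 and 2 lacked reads of 1 or more of them. In the other 7 groups MYOG, MYF5, MYF6 and MYOD1 were at or near 0. PAX3 and MEF2C were present in both primary cultures, and their means were 1.35 normalized reads or less in each immortal line. Beginning with the progenitor factors, PAX7 had 0, 0 and 47.1 normalized reads in FAT, against 178, 230 and 213 in CEF2, a mean of 207 ± 26.8 (SD, n = 3). A single FAT library thus held every FAT read of PAX7. SCF4 had 0, 1.45 and 2.57 normalized reads of PAX7 from 8 reads, and the means of SDF1, CEF4, SCF2 and CF2 were 0.604, 0.376, 0.145 and 0.114. CF4 and DF1 had 0 reads of PAX7. The CEF2 libraries lay above every other library for PAX7, and the groups below FAT overlapped with their neighbours in the order of means.

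PAX3, which also marks neural crest and the migrating precursors of limb muscle, followed another pattern. CEF4 had 24.7, 14.4 and 6.20 normalized reads of PAX3, and CEF2 had 15.8, 22.4 and 30.6. The primary cultures overlapped for PAX3, unlike for PAX7. FAT had 6.32, 0 and 1.52 normalized reads of PAX3, which was 3 reads in all. The remaining groups had means of 0.525 or less, and SCF4 and CF2 had 0 reads.

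**Figure D1:**
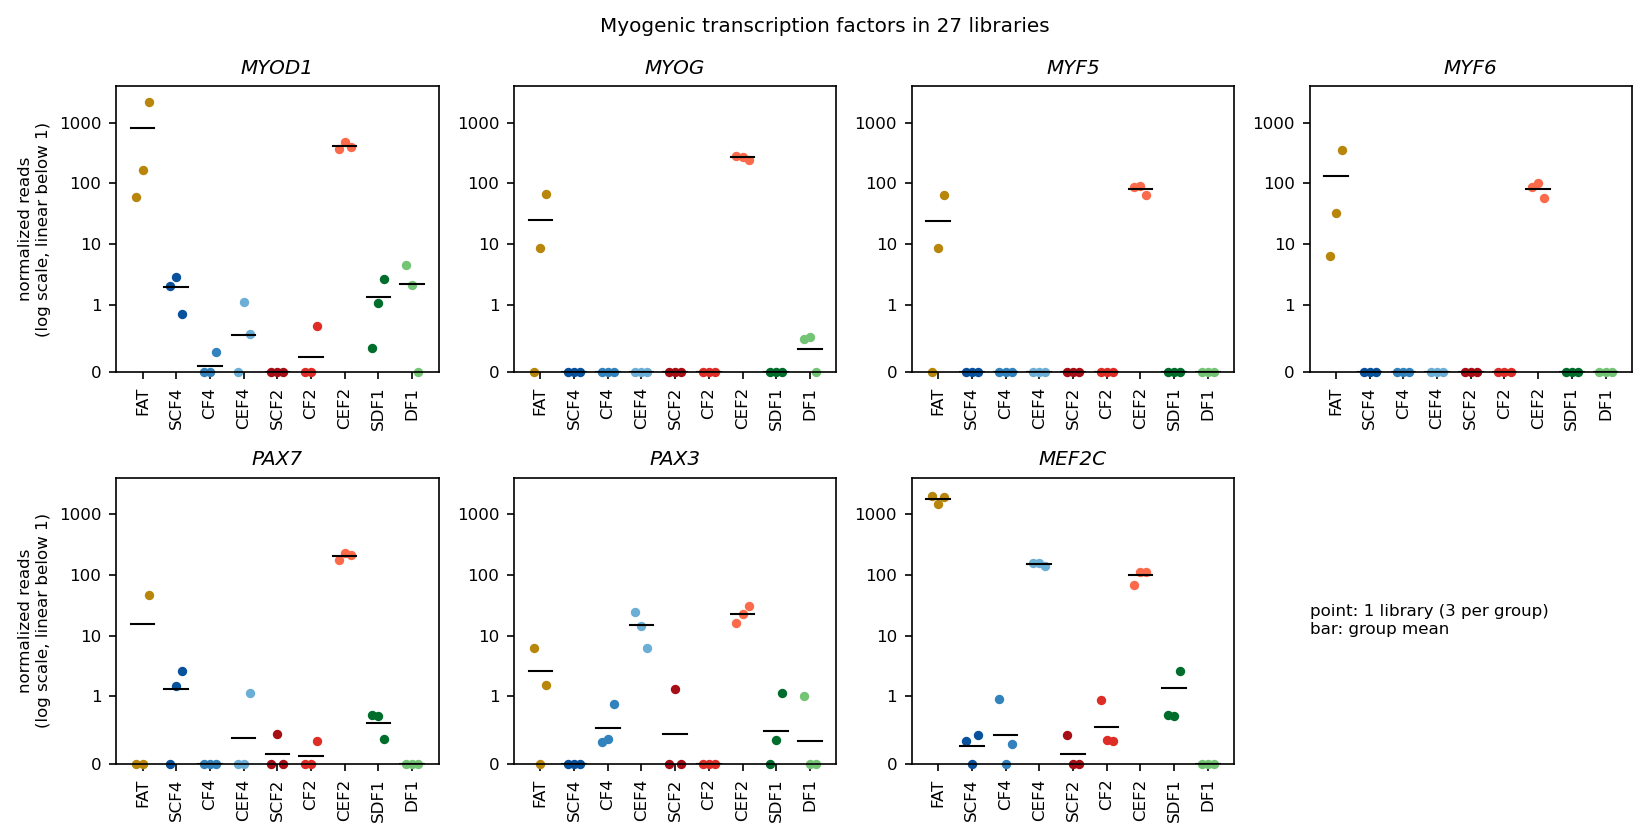
Normalized reads of the 7 factors in each library (points, 3 per group) with the group mean (bar), on an axis that is logarithmic above 1 and linear below. MYOD1, MYOG, MYF5, MYF6 and PAX7 are spread out in FAT and stand high in CEF2, while PAX3 and MEF2C are also present in CEF4.

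Of the commitment factors, MYOD1 had 60.1, 165 and 2193 normalized reads in FAT, against 369, 487 and 402 in CEF2. FAT overlapped CEF2 for MYOD1 because its libraries fell on both sides, replicates 1 and 2 below all CEF2 libraries and replicate 3 above them. The mean of FAT was 1.92 times that of CEF2 over all libraries, and 0.269 times without FAT replicate 3. No test was run between FAT and CEF2, which came from different deposited sets. No other group had more than a trace of MYOD1. DF1 had 4.49, 2.12 and 0 normalized reads, SCF4 had 2.06, 2.90 and 0.856, and SDF1 had 0.364, 1.07 and 2.61. CEF4 had 0, 1.11 and 0.563 from 3 reads, CF2 had 2 reads, CF4 had 1 read and SCF2 had 0. All of these groups overlapped with their neighbours in the order of MYOD1 means.

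MYF5 had 0, 8.71 and 63.9 normalized reads in FAT, against 85.9, 91.8 and 64.4 in CEF2 (mean 80.7 ± 14.4, SD, n = 3). The CEF2 libraries lay just above FAT replicate 3 and well above the other FAT libraries. SCF4, CF4, CEF4, SCF2, CF2, SDF1 and DF1 had 0 reads of MYF5 in all 21 of their libraries.

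The differentiation factor MYOG had 0, 8.71 and 65.4 normalized reads in FAT, against 285, 266 and 246 in CEF2 (mean 266 ± 19.8, SD, n = 3). Each FAT library was below each CEF2 library for MYOG. DF1 had 2 reads of MYOG in all, and SCF4, CF4, CEF4, SCF2, CF2 and SDF1 had 0. MYF6 had 6.32, 31.9 and 357 normalized reads in FAT, against 88.4, 100 and 56.7 in CEF2. For MYF6 the FAT libraries again fell on both sides of CEF2, and all 7 other groups had 0 reads. The mean of FAT was 1.61 times that of CEF2, and 0.234 times without FAT replicate 3.

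MEF2C, the MEF2 family member measured here as a partner of the bHLH factors, was even across the FAT libraries. It had 1998, 1478 and 1924 normalized reads in FAT, 159, 157 and 140 in CEF4, and 69.2, 110 and 113 in CEF2. These 3 groups did not overlap. The mean of FAT was 18.5 times that of CEF2, and 17.8 times without FAT replicate 3. SDF1 had 0.728, 0.711 and 2.61 normalized reads of MEF2C, the means of CF2, CF4, SCF4 and SCF2 were 0.545, 0.42, 0.257 and 0.143, and DF1 had 0 reads. The immortal lines overlapped with their neighbours in this order.

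The first comparison asked how the factors differed between the anchorage-independent line SCF2 and CEF2, the primary culture of the same line number. The changes given here are log2 differences of normalized reads plus 1 from limma, fitted over all genes, with calls made at adjusted p-values below 0.05. All 7 factors were lower in SCF2, where MYOD1, MYOG, MYF5 and MYF6 had 0 reads and PAX7, PAX3 and MEF2C had 1, 3 and 1. Over 13001 genes tested, 66.8% changed, 37.1% lower and 29.8% higher, and quantile normalization changed these shares to 28% and 41.2%. The median change of all genes was -0.08, or 0.22 after quantile normalization, against a median of -6.42 over the 7 factors. In bulk RNA, fewer cells of a type and less RNA per cell cannot be told apart.

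MYOD1 was at least 860-fold lower in SCF2 than in CEF2, counted on reads pooled over the libraries of a group against the floor (log2 change -8.71, SE 0.35, limma adjusted p = 3.95e-11). MYOG was at least 547-fold lower (log2 change -8.06, SE 0.27, limma adjusted p = 6.31e-12). MYF5 was at least 164-fold and MYF6 at least 165-fold lower, with log2 changes of -6.34 and -6.33. For PAX7 the pooled ratio was 1281-fold lower (95% interval 230 to 50640), on 1 read in SCF2 and 1525 in CEF2. PAX3 was 48.4-fold lower (16.3 to 237), with 3 reads in SCF2 and 173 in CEF2 (log2 change -4.13, SE 0.47, limma adjusted p = 2.75e-06). The 3 reads of PAX3 in SCF2 were all in replicate 2. MEF2C was 608-fold lower (109 to 24059), with 1 read in SCF2 and 724 in CEF2. All 7 calls held under each of the 14 alternatives tried for SCF2 against CEF2. MYOG, MYF5 and MYF6 had 0 reads in every fitted group but CEF2, so they passed the filter on low values only through CEF2. The filter thus set the direction of their calls.

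CF2, an immortal line not labelled anchorage-independent, was compared with the same primary culture. All 7 were called lower in CF2 as well, where 42.6% of 13123 genes were called lower and 29.6% higher, or 30.2% and 43% after quantile normalization. CF2 came from the second deposited set and CEF2 from the first, so set and group cannot be told apart. MYOD1 had 2 reads in CF2 and was 1869-fold lower (517 to 15443). MYOG was at least 792-fold lower, MYF5 at least 238-fold, MYF6 at least 239-fold and PAX3 at least 70.2-fold. PAX7 was 1856-fold lower (333 to 73354) on 1 read in CF2. MEF2C had 5 reads in CF2 and was 176-fold lower (75.2 to 544). SCF2 and CF2 were both set against CEF2, so these results share the CEF2 libraries. Here too MYOG, MYF5 and MYF6 passed the filter only through CEF2, and the filter set the direction of their calls.

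**Figure D2:**
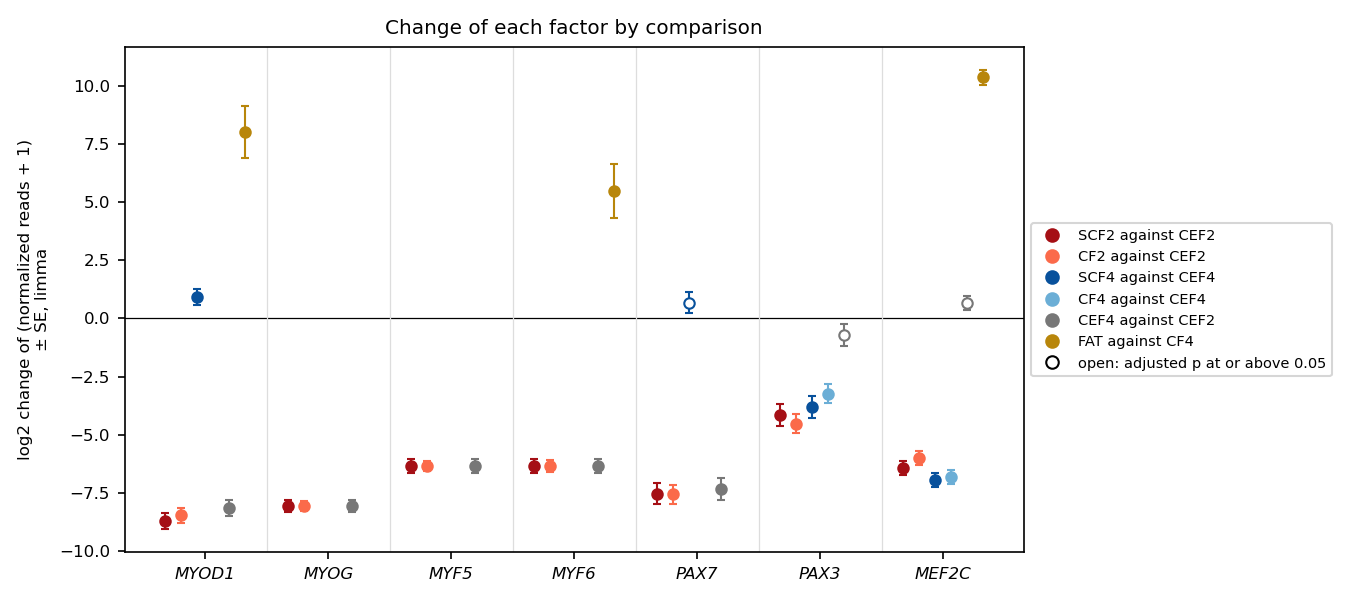
Log2 change (limma, points) with its standard error (bars) for each factor in 6 comparisons, and open points where the adjusted p was 0.05 or more. Factors with both groups at or under 3 reads, or not tested, have no point. All 7 factors were called lower in SCF2 and CF2 against CEF2, while MEF2C and PAX3 were called lower in SCF4 and CF4 against CEF4.

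In line 4 the primary culture held few of the factors to begin with. PAX3 and MEF2C were lower in SCF4 than in CEF4, and MYOD1 was slightly higher. Of all genes tested, 64.3% changed, 33.8% lower and 30.5% higher in SCF4, or 27.8% and 37.7% after quantile normalization, which moved the median change of all genes from -0.04 to 0.17. MYOG, MYF5 and MYF6 had 0 reads in all 6 libraries. MEF2C had 2 reads in SCF4 and 887 in CEF4 and was 506-fold lower (140 to 4184, log2 change -6.94, SE 0.29, limma adjusted p = 4.63e-11). PAX3 had 0 reads in SCF4 and 92 in CEF4, at least 35-fold lower (log2 change -3.82, SE 0.47, limma adjusted p = 6.32e-06).

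The MYOD1 call in line 4 rested on 12 reads in SCF4 and 3 in CEF4, a pooled ratio of 3.51-fold higher with an interval of 0.946 to 19.4. Its log2 change was 0.92 (SE 0.35, limma adjusted p = 0.0349), and it was called under 7 of 14 alternatives, whose adjusted p ran from 0.000109 to 0.14. Leaving out CEF4 replicate 1 or 3, or SCF4 replicate 1 or 2, ended the call, with adjusted p of 0.121, 0.0528, 0.0915 and 0.14. It also ended with edgeR (0.0708) and DESeq2 (0.0958) on the recovered reads and with only these 2 groups fitted (0.133). PAX7 had 8 reads in SCF4 and 2 in CEF4 (log2 change 0.68, SE 0.46, limma adjusted p = 0.208). It passed the threshold with quantile normalization (adjusted p = 0.0203) and without SCF4 replicate 1 (0.024), within a range of 0.0203 to 0.627 over the alternatives.

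CF4 against CEF4 gave the same pair of genes lower and none higher. Of 13123 genes, 39% were called lower and 31.2% higher, or 30.1% and 40.6% after quantile normalization, and deposited set and group cannot be told apart here either. MEF2C had 4 reads in CF4 and was 352-fold lower (137 to 1294, log2 change -6.81, limma adjusted p = 3.97e-13). PAX3 had 5 reads in CF4 and was 29.2-fold lower (12.1 to 92, log2 change -3.24, limma adjusted p = 1.26e-06). SCF4 and CF4 share the CEF4 libraries in these results.

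The primary cultures differed from each other in 5 factors. They also differed in line number and breed, so culture, line and breed cannot be told apart. The p-values rest on the spread among libraries within the CEF and SCF groups fitted together, and not on a spread between lines or breeds. CEF4 was lower than CEF2 in MYOD1, MYOG, MYF5, MYF6 and PAX7, against a background of 22.4% of all genes lower and 16.7% higher, or 19.5% and 21.1% after quantile normalization. MYOD1 had 3 reads in CEF4 and 3072 in CEF2, 805-fold lower (275 to 3908, log2 change -8.13, SE 0.35, limma adjusted p = 1.04e-09). MYOG was at least 512-fold lower, MYF5 and MYF6 each at least 154-fold, and PAX7 600-fold (166 to 4957). These 5 calls held under all 14 alternatives. MYOG, MYF5 and MYF6 had 0 reads in every fitted group but CEF2 and passed the filter only through CEF2. The filter thus set the direction of their calls. PAX3 did not pass the test (log2 change -0.71, SE 0.47, limma adjusted p = 0.26). MEF2C was 1.56 times as high in CEF4 (1.41 to 1.72 by counting error), with a log2 change of 0.67 (SE 0.29, limma adjusted p = 0.0812). MEF2C passed the threshold with quantile normalization, with only these 2 groups fitted, and with edgeR and DESeq2 on the recovered reads, within a range of 0.0225 to 0.529.

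An interaction term tested the line 4 change (SCF4 minus CEF4) against the line 2 change (SCF2 minus CEF2). It was called for MYOD1 (log2 difference 9.62, SE 0.50, limma adjusted p = 6.49e-09), MYOG (8.06), MYF5 (6.34), MYF6 (6.33) and PAX7 (8.20), 5 of 7 factors, against 22% of all genes positive and 17.3% negative. The difference of PAX3 was 0.31 (SE 0.67, limma adjusted p = 0.752) and that of MEF2C was -0.53 (SE 0.40, limma adjusted p = 0.333). Where CEF4 and SCF4 had 0 reads, as for MYOG, MYF5 and MYF6, a factor could not have fallen in line 4. These factors passed the filter only through CEF2, so the filter set the sign of their difference. With edgeR on the recovered reads MYOG, MYF5 and MYF6 had an adjusted p of 1, and the calls of MYOD1 and PAX7 held. CEF4 had only 3 reads of MYOD1 and 2 of PAX7 (means of 0.557 and 0.376 normalized reads). Thus MYOD1 and PAX7 had almost no room to fall in line 4, and their differences mostly give the level of CEF2. Line, culture and breed cannot be told apart here either.

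Between the immortal lines the levels were a few reads at most. SCF4 had more MYOD1 than SCF2, 12 reads against 0 and at least 3.75-fold higher (log2 change 1.49, SE 0.35, limma adjusted p = 0.00672), 1 factor called against a background of 24.9% of all genes, 12.8% higher and 12.1% lower. MYOD1 reached 1 normalized read in 2 SCF4 libraries and in no SCF2 library, so it passed the filter only through other groups of the fit. With only SCF4 and SCF2 fitted it was not tested. PAX7 had 8 reads in SCF4 and 1 in SCF2 (log2 change 0.87, limma adjusted p = 0.196). SCF4 also had more MYOD1 than CF4, 12 reads against 1 and 16.7-fold higher (2.47 to 713, limma adjusted p = 0.00247), across deposited sets. PAX7 had 8 reads in SCF4 and 0 in CF4, at least 3.71-fold higher (log2 change 1.04, SE 0.40, limma adjusted p = 0.0394). Against CF4, 27.3% of all genes were higher and 18.4% lower in SCF4. Both MYOD1 and PAX7 passed the filter there only through other groups of the fit, and with only SCF4 and CF4 fitted 0 factors were tested. The PAX7 call was kept under 7 of 13 alternatives. It was lost with a pseudocount of 0.1 (adjusted p = 0.0544) and when SCF4 replicate 2 or 3, or any CF4 replicate, was left out (adjusted p 0.0818 to 0.219).

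In SCF2 against CF2, limma called 0 of 7 factors, with 0 at an unadjusted p under 0.05 and 0 called by edgeR or DESeq2, against 43.5% of all genes, 25.2% higher and 18.3% lower. MYOD1, MYOG, MYF5, MYF6, PAX7 and PAX3 had at most 3 reads in each of these groups, so a difference was not detectable at this depth. MEF2C had 1 read in SCF2 and 5 in CF2 (log2 change -0.43, limma adjusted p = 0.269). In CF4 against CF2 and in SDF1 against DF1, MYOD1 alone passed the filter on low values, and limma called 0 factors in each, with 0 at an unadjusted p under 0.05 and 0 called by DESeq2. edgeR had no factor past its own filter there. Of 11834 genes, 43% changed in CF4 against CF2, 22% higher and 21% lower. In SDF1 against DF1, 47.9% changed, 27.5% higher and 20.4% lower, or 23.1% and 26.4% after quantile normalization. Without DF1 replicate 3, which stood apart, 8719 genes changed in place of 5667. MYOD1 had 11 reads in SDF1 and 13 in DF1 (log2 change -0.25, SE 0.58, limma adjusted p = 0.746), and DF1 replicate 3 had 0. MEF2C had 11 reads in SDF1 and 0 in DF1, and PAX7 had 5 and 0. Both were called without the filter on low values, with adjusted p of 0.0177 and 0.00555.

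FAT was compared with CF4, the immortal line of the breed on its label. In it 45.4% of 12861 genes were called higher and 28.8% lower, or 32% and 41.5% after quantile normalization, which moved the median of all genes from 0.40 to -0.24. MYOD1, MYF6 and MEF2C passed the filter. This fit held FAT, CF4 and CF2, and no CF library reached 1 normalized read of a factor, so a factor could pass only by being high in FAT. The direction of these 3 calls was thus set by the filter. MEF2C had 2406 reads in FAT and 4 in CF4, 4205-fold higher (1640 to 15444, log2 change 10.35, SE 0.32, limma adjusted p = 2.70e-08). MYOD1 had 1518 reads in FAT and 1 in CF4 (log2 change 8.01, SE 1.10, limma adjusted p = 0.000164). MYF6 had 248 reads in FAT and 0 in CF4, at least 578-fold higher (log2 change 5.47, SE 1.15, limma adjusted p = 0.00221).

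Most of those bHLH reads came from 1 library. Without FAT replicate 3 the log2 change of MYOD1 was 6.53 and that of MYF6 was 3.96, against 10.30 for MEF2C, and all 3 stayed called. The MYF6 call was lost with quantile normalization (adjusted p = 0.0527), within a range of 0.000262 to 0.0527 over its alternatives. MYOG, MYF5, PAX7 and PAX3 did not pass the filter. MYOG had 46 reads in FAT and 0 in CF4, at least 107-fold higher, of which 43 were in replicate 3. MYF5 had 45 reads, at least 105-fold higher, of which 42 were in replicate 3. PAX7 had 31 reads, at least 72.2-fold higher, all in replicate 3. PAX3 had 3 reads in FAT and 5 in CF4. DESeq2 called MYOG (adjusted p = 0.0344) and MYF5 (0.0354) higher in FAT, and so did limma without the filter (0.049 and 0.0488).

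The 4 bHLH factors divided their reads differently in FAT and CEF2. These are shares of reads within a library, not corrected for transcript length, with 95% Wilson intervals for counting error. MYOG made up 0% (0 to 15.5), 4.05% (1.39 to 11.3) and 2.44% (1.82 to 3.27) of the bHLH reads in the FAT libraries. In the CEF2 libraries it made up 34.4% (32.4 to 36.6), 28.2% (26.2 to 30.2) and 31.9% (30 to 33.9). Thus the MYOG share was lower in every FAT library than in every CEF2 library, at totals of 21, 74 and 1762 reads in FAT and 1986, 2028 and 2185 in CEF2. MYOD1 made up 90.5%, 77% and 81.8% in FAT, against 44.5%, 51.5% and 52.3% in CEF2. The MYF5 share was 0%, 4.05% and 2.38% in FAT and 10.4%, 9.71% and 8.38% in CEF2. The MYF6 share was 9.52%, 14.9% and 13.3% in FAT and 10.7%, 10.6% and 7.37% in CEF2, so for MYF6 the groups overlapped. With 3 libraries a group the smallest p of a two-sided exact permutation test is 0.1, and no test of the shares was run.

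**Figure D3:**
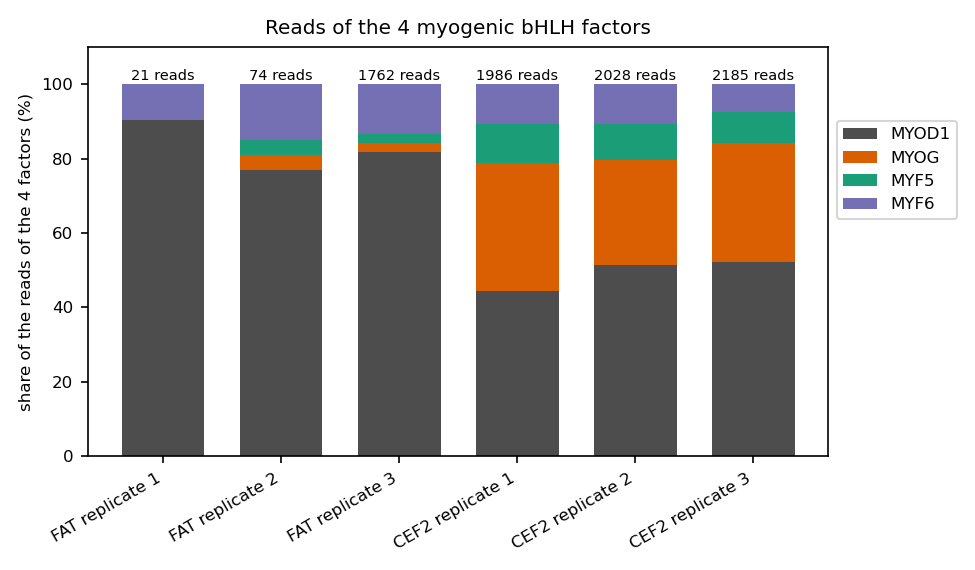
Share of the reads of MYOD1, MYOG, MYF5 and MYF6 held by each factor (stacked, percent) in every FAT and CEF2 library, with the total reads above each bar. MYOG takes 0% to 4.05% in the FAT libraries and 28.2% to 34.4% in the CEF2 libraries.

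Marker lists of cell types were summed beside these results. The skeletal muscle list, which holds MYOD1, MYOG, MYF5, MYF6 and PAX7 themselves, had 12 of 14 genes in the table. Its sum was 23283, 77766 and 1093314 normalized reads in FAT, 838 to 907 in CEF4 and 13756 to 15447 in CEF2. It was at most 17.4 in any library of SCF4, CF4, SCF2, CF2, SDF1 or DF1. In FAT and CEF2 most of it was ACTA1, the skeletal muscle alpha-actin, with 14272, 50631 and 743529 normalized reads in FAT, against 10028, 11199 and 9962 in CEF2. In CEF4, MYOG, MYF5, MYF6, MYL1 and MYLPF of this list had 0 reads, while ACTA1 had 380, 351 and 304 normalized reads and ACTC1, the cardiac actin that embryonic skeletal muscle also uses, had 522, 482 and 556.

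FAT also carried markers of fat, blood and vessels, with reads of every measured gene of these lists in every FAT library. The 7 measured fat genes summed to 68496 to 291368 normalized reads in FAT, 648 to 787 in CEF4 and 2217 to 2269 in CEF2. FAT replicate 3, highest for muscle, was lowest for the fat, endothelial, and blood and macrophage lists. The 8 measured blood and macrophage genes summed to 10945 to 25857 in FAT and 96.8 to 115 in CF4, and the 6 endothelial genes to 6565 to 25373 and 1691 to 1737. Not all genes of these lists were higher in FAT than in CF4. ERG of the endothelial list was lower (log2 change -1.55, limma adjusted p = 0.0057). CD3E of the blood list was not called (0.65, limma adjusted p = 0.202). The other measured genes of both lists were called higher, SPI1, C1QA and C1QB from 0 reads in CF4. C1QA and C1QB had 0 reads in CF2 as well and passed the filter only through FAT. SPI1 reached 1 normalized read in no CF2 library, so it passed only through FAT too. MEF2C spanned 1478 to 1998 normalized reads over the FAT libraries, and the 8 smooth muscle markers summed to 10126 to 11356. The part of each cell type in the MEF2C level was not tested. Fibroblast markers, 11 of 11 measured, summed to 177402 to 304525 in FAT, 652000 to 997258 in CEF4 and 448853 to 517835 in CEF2. In the immortal lines they summed to 41544 to 153592. CEF4 and CEF2 also differed in cartilage markers, 257190 to 380228 against 7357 to 8182, and in neural and neural crest markers, 36.8 to 40.9 against 320 to 337. Smooth muscle markers summed to 32673 to 33269 in CEF4 and 126879 to 140300 in CEF2. In the immortal lines they summed to 3467 to 3674 in SCF2, 3363 to 3638 in SCF4, 3487 to 3837 in CF4 and 6635 to 6761 in CF2. Their sums were 13291 to 13609 in SDF1 and 5869 to 14066 in DF1. The 6 cardiac markers summed to 106 to 138 in CEF4 and 300 to 326 in CEF2. The part of these cell types in the differences of the factors was not tested.

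**Figure D4:**
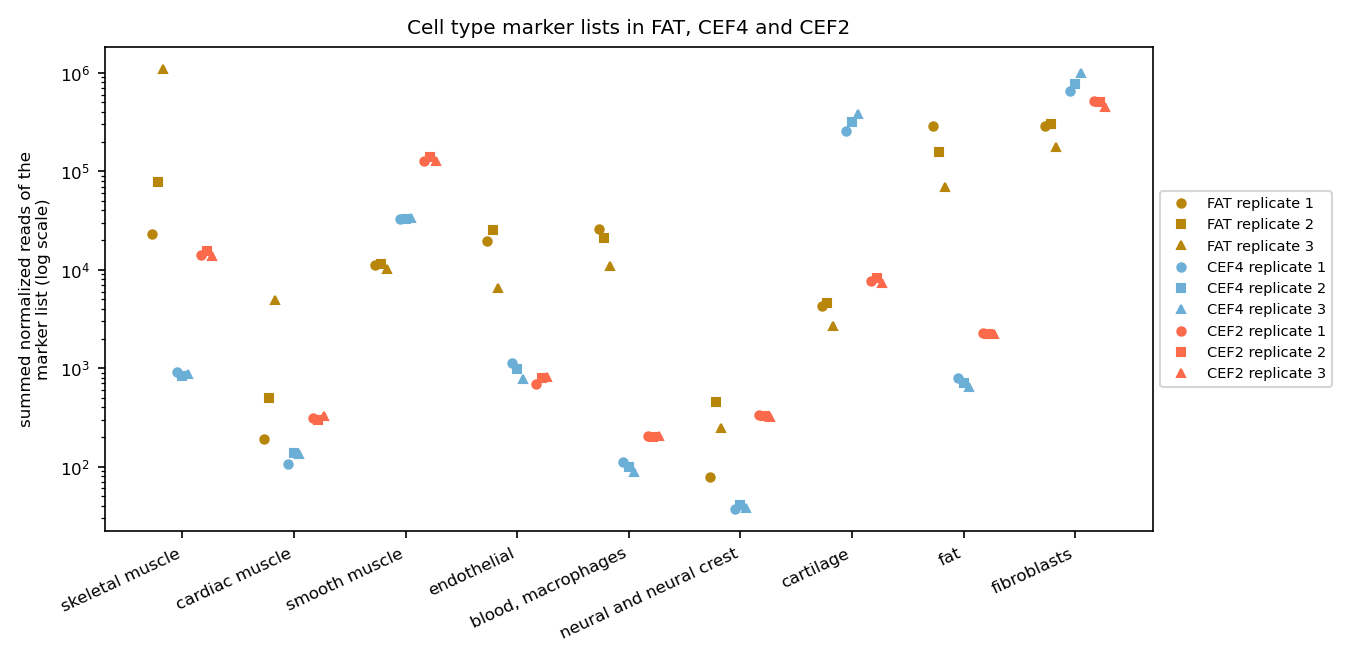
Summed normalized reads (log axis) of 9 marker lists in each library of FAT, CEF4 and CEF2. The skeletal muscle sum spans 23283 to 1093314 in FAT and 13756 to 15447 in CEF2, while CEF4 stands highest for cartilage.

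The pathway around the factors was described from gene lists by their counts and medians. Among 5 measured E proteins and MEF2 paralogs, 3 fell and 1 rose in SCF2 against CEF2, and likewise in SCF4 against CEF4. Of all genes, 37.1% fell and 29.8% rose in SCF2, and 33.8% and 30.5% in SCF4. MEF2B fell by 6.40 (log2, SE 0.30, limma adjusted p = 2.29e-10) in SCF2 and by 5.70 in SCF4, where it had 0 reads in both. MEF2A, MEF2D and the E protein TCF12 stayed expressed in every group. MEF2A averaged 437 normalized reads in SCF2 and 787 in CEF2, and TCF12 averaged 8495 and 5880, a rise of 0.53 (log2, SE 0.15, limma adjusted p = 0.00638). Thus MEF2C and MEF2B were near 0 in the immortal lines, and MEF2A and MEF2D were not. In FAT against CF4, 3 of 5 rose and 2 fell, against 45.4% and 28.8% of all genes. The log2 change there was 5.71 for MEF2B and 2.48 for MEF2D.

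Of 13 tested regulators that act upstream in muscle precursors, 12 were called lower and 1 higher in SCF2 than in CEF2 (median log2 change -5.18). In SCF4 against CEF4, 7 of 13 were called lower and 1 higher (median -1.33), and EYA1 and LBX1 had a change of 0.00. Of all genes, 37.1% were lower and 29.8% higher in SCF2, and 33.8% and 30.5% in SCF4. SIX2, a homeobox factor, had 0 reads in SCF2, against 392, 460 and 384 normalized reads in CEF2. It had 0.344, 0 and 0 normalized reads in SCF4, against 1342, 1416 and 1130 in CEF4. Thus SIX2 was present in both primary cultures, including CEF4 where MYOG, MYF5 and MYF6 had 0 reads. Its log2 changes were -8.68 in SCF2 and -10.19 in SCF4. MEOX2, a homeobox factor of somites and limb muscle, had -7.94 and -5.85. EYA1, a transcriptional coactivator, had 0 reads in CEF4 as MYOG did, against 31.7, 39.2 and 35.2 normalized reads in CEF2 (log2 change -5.18, SE 0.30, limma adjusted p = 1.26e-08). LBX1, a factor of migrating limb muscle precursors, had 0 reads in CEF4 and a mean of 10.5 in CEF2. EYA1 and LBX1 also had 0 reads in SCF2, SCF4, CF2 and CF4. They passed the filter only through CEF2, so the filter set the direction of their change against it. Over the list, 9 of 13 were lower and 1 higher in CEF4 than in CEF2, against 22.4% and 16.7% of all genes. In CF2, 11 of 13 were lower and 1 higher against CEF2, and in CF4, 8 lower and 2 higher against CEF4. Of all genes, 42.6% were lower and 29.6% higher in CF2, and 39% and 31.2% in CF4. In FAT against CF4, 8 of 11 tested were higher and 2 lower, among them MEOX2 (log2 change 10.20) and EYA2 (6.17).

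Inhibitors of the myogenic factors did not move in 1 direction. In SCF2 against CEF2, 8 of 18 tested rose and 8 fell (median 0.04), and in SCF4 against CEF4, 6 rose and 8 fell (median 0.06). Of all genes, 29.8% rose and 37.1% fell in SCF2, and 30.5% and 33.8% in SCF4, so all genes also moved in both directions. TWIST2, a bHLH factor that blocks MYOD1 in mouse cells, rose by 4.72 (SE 0.28, limma adjusted p = 2.16e-09) in SCF2 and by 9.63 (SE 0.28, limma adjusted p = 1.06e-12) in SCF4 on the log2 scale. It had 4837, 3790 and 5423 normalized reads in SCF2, against 173, 180 and 171 in CEF2. In SCF4 it had 7276, 6333 and 8742, against 16.2, 6.09 and 5.63 in CEF4. TWIST2 was lower in CEF4, which had 3 reads of MYOD1, than in CEF2, the primary culture with MYOD1. A relation of TWIST2 to MYOD1 in these libraries was not tested. ID3, which binds E proteins away from the bHLH factors, had a log2 change of -2.06 in SCF2, and MSC, the bHLH repressor musculin, had -5.75. HEY1, a Notch target, had 3.13 in SCF4, and SNAI2, a zinc-finger repressor, had -5.90. In FAT against CF4, 8 of 19 tested rose and 5 fell, or 5 and 6 after quantile normalization. Of all genes, 45.4% rose and 28.8% fell in FAT, or 32% and 41.5% after quantile normalization, so the list was near the share of all genes. MSC rose by 7.91, but it had 0 reads in CF4 and CF2 and passed the filter only through FAT.

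**Figure D5:**
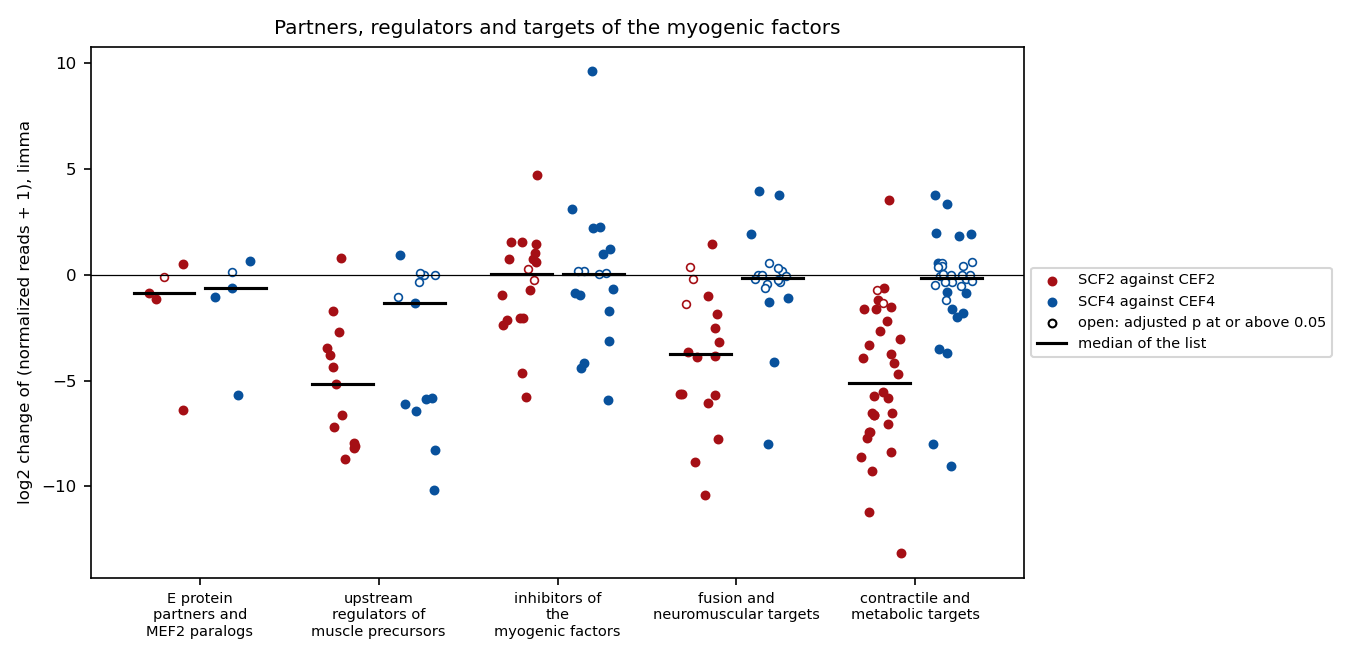
Log2 change (limma) of each tested gene of 5 pathway lists in SCF2 against CEF2 (left of each pair) and SCF4 against CEF4 (right), with the list median as a bar and open points where the adjusted p was 0.05 or more. The contractile targets have a median of -5.12 in line 2 and -0.14 in line 4, or -4.26 and 0.34 after quantile normalization. MYL1, MYLPF, MYL2, TRIM55 and CRYAB had 0 reads in CEF4 and could not have fallen in line 4.

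Known targets of the factors were also lower in SCF2 than in CEF2. Of all genes, 37.1% were lower and 29.8% higher in SCF2, or 28% and 41.2% after quantile normalization. Of 18 measured fusion and neuromuscular genes, 14 fell and 1 rose in SCF2 against CEF2 (median -3.75), or 10 and 2 after quantile normalization, where CACNA1S and RAPSN changed sign. CHRND, an acetylcholine receptor subunit of the neuromuscular junction, had 0 reads in SCF2, against 67.1, 62.9 and 69 normalized reads in CEF2. MUSK, the receptor kinase that assembles this junction, had 0 reads in SCF2 and averaged 51.3 in CEF2. The log2 change was -8.83 for RBM24, a muscle splicing factor, and -10.42 for NCAM1, an adhesion molecule of myoblasts and neurons. Genes of the MYH family are near-identical copies, so their counts are uncertain. Of 32 contractile and metabolic genes, 29 fell and 1 rose (median -5.12), or 23 and 1 after quantile normalization, where MYH1A, MYH1B, MYL2 and TRIM63 changed sign. ACTC1 had 0 reads in SCF2, against 2392, 2513 and 2303 normalized reads in CEF2 (log2 change -11.23, SE 0.17, limma adjusted p = 4.89e-15). CF2 against CEF2 gave 26 lower and 4 higher, or 23 and 5 after quantile normalization, where MB, MYL2 and TRIM63 changed sign. Of all genes, 42.6% were lower and 29.6% higher in CF2, or 30.2% and 43% after quantile normalization. MYL1, CRYAB, CAV3 and CHRND had 0 reads in SCF2, SCF4 and CEF4. In the fit of SCF2 against CEF2 they passed the filter only through CEF2, which set the direction of their change. The same held for MUSK, with a mean of 0.188 normalized reads in CEF4 and 0 in SCF2 and SCF4. TNNI1 also passed only through CEF2, since it reached 1 normalized read in no SCF2, SCF4 or CEF4 library. The counts that fell hold these genes, and how many more passed this way was not counted. CRYAB also had 0 reads in CF2 and CF4, so the same held for it in CF2 against CEF2.

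In line 4, where the bHLH factors were at or near 0 on both sides, 9 of the 32 contractile genes fell and 6 rose in SCF4 against CEF4 (median -0.14), or 8 and 9 after quantile normalization. Of all genes, 33.8% fell and 30.5% rose in SCF4, or 27.8% and 37.7% after quantile normalization. The contractile list itself was low in CEF4, with sums of 2133 to 2322 normalized reads, against 22825 to 24557 in CEF2. MYL1, MYLPF, MYL2, TRIM55 and CRYAB had 0 reads in CEF4, so they could not have fallen in SCF4 or CF4. ACTC1 had a log2 change of -9.02, and 0 reads in SCF4. MYOM1, an M-band protein, rose by 3.77 (SE 0.22, limma adjusted p = 1.73e-09), with 213, 240 and 227 normalized reads in SCF4 and 18, 9.96 and 21.4 in CEF4. MYOM1 was higher still in SCF2, with a mean of 922, and in CF2, with 1091, groups in which MYOD1 had 0 and 2 reads. A relation of MYOM1 to MYOD1 was not tested. Of 18 fusion and neuromuscular genes 4 fell and 3 rose (median -0.13), or 2 and 4 after quantile normalization, where KLHL41 changed sign. CAV3, CHRND and SMYD1 of this list had 0 reads in CEF4 and could not have fallen. CELF2, an RNA-binding protein, had a log2 change of 3.96 and JPH2, a junctional membrane protein, had 3.76. In CF4 against CEF4, 10 contractile genes fell and 5 rose, or 7 and 9 after quantile normalization. Of all genes, 39% fell and 31.2% rose in CF4, or 30.1% and 40.6% after quantile normalization.

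The same lists set the primary cultures and FAT apart. In CEF4 against CEF2, 30 of 32 contractile genes were lower and 0 higher (median -4.33), and 15 of 18 fusion and neuromuscular genes were lower and 0 higher (median -3.35). After quantile normalization these counts were 27 and 14 lower and 0 higher. MYL1, CRYAB, CAV3 and CHRND had 0 reads in every fitted group but CEF2. They passed the filter only through CEF2, so the filter set the direction of their change. Of all genes, 22.4% were lower and 16.7% higher in CEF4, or 19.5% and 21.1% after quantile normalization. TNNI1, the slow skeletal troponin I, had 0, 0.553 and 0 normalized reads in CEF4, against 216, 254 and 233 in CEF2. TNNI1 had 0 reads in SCF4 and reached 1 normalized read in no SCF2 library. It too passed the filter only through CEF2, which set its direction, and so did MUSK, with a mean of 0.188 in CEF4. How many more genes of these counts passed this way was not counted. Since CEF2 also enters the results of SCF2 and CF2, these counts share its libraries. In FAT against CF4, 30 of 32 contractile genes were higher and 0 lower (median 9.20), and 14 of 18 fusion and neuromuscular genes were higher and 0 lower (median 5.82). Without FAT replicate 3 these were 30 and 0 (median 7.73), and 13 and 1 (median 4.20). After quantile normalization they were 28 and 1, and 11 and 0, and CHRNA1 changed sign. Of all genes, 45.4% were higher and 28.8% lower in FAT, or 32% and 41.5% after quantile normalization. ACTC1, TNNI2, TNNT3, LDB3, CRYAB, CAV3, MUSK, SMPX and RBM24 had 0 reads in CF4 and CF2. These genes passed the filter only through FAT, so the filter set the direction of their calls. The same held for MYL1, TNNT2 and CHRND, which reached 1 normalized read in no CF4 or CF2 library. TNNT2 had means of 0.196 in CF4 and 0.105 in CF2, and CHRND had 0 and 0.114. How many more genes of these counts passed this way was not counted. DES, the muscle intermediate filament desmin, had 2381, 4113 and 38337 normalized reads in FAT, against 0, 0.738 and 1.18 in CF4. MYL1, a fast myosin light chain, had 4351, 10169 and 127662 in FAT and 1 read in CF4. Both were lowest in FAT replicate 1 and highest in replicate 3, as were MYOD1 and MYF6.

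The genes with the pattern most like each factor were taken by Pearson correlation of log2 values over all 27 libraries, among 11711 genes, as a description without a test. The points share their libraries, and most of them are at or near 0 for each factor. MYF6 was most like CHRND (r = 0.995), MUSK (0.990) and CRYAB (0.977), a small heat-shock protein abundant in muscle. MYOD1 was most like MUSK (0.981), followed by MYF6 (0.974) and CHRND (0.970). MYOG was most like MYF5 (0.992), then SLC9A3, a sodium-proton exchanger, and TNNT2, the cardiac troponin T of embryonic muscle. MYF5 also had LEUTX (0.985) and EYA1 (0.980) near it. PAX7 was most like SLC9A3 (0.974), and its list held GJD4 (0.951), a connexin, and MYOG (0.948). PAX3 was most like PADI3, INSC and PROK2 (0.960, 0.957 and 0.947), and MEF2C like RAB10L, DACT2 and AMN1 (each 0.991). No bHLH factor was among the 5 genes most like PAX3 or MEF2C. Among the members themselves, PAX3 and MEF2C correlated at 0.66 over 27 libraries and at 0.95 over the 24 libraries without FAT, and MYOG and PAX7 at 0.95 and 0.98.

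The authors' deposited table for line 2 listed log2 fold changes of 11.21 for MYOD1, 11.14 for MYOG, 9.42 for MYF5 and 9.38 for MYF6. Its values ran opposite to the changes here (r = -0.977 over 5605 matched genes), so a positive value there means lower in SCF2. In the authors' deposited table for line 4, MYOD1 had -2.05 (adjusted p = 0.0071), which is higher in SCF4, as in the 12 and 3 reads above. The authors' deposited table for line 4 gave MYOG and MYF5 a change of 0 and MYF6 one of -0.53 (adjusted p = 0.698). Values for PAX7, PAX3 and MEF2C from those tables were not used here.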

How the data were processed

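The 27 libraries of 9 groups were NuGEN Trio RNA-seq libraries read from both ends, per the labels' protocols. The submitters' processing notes list galGal6 as the build and Bowtie2, RSEM and DESeq2 as tools, with no version or role. The authors deposited a signal per gene symbol in all libraries. It is named TPM, but its columns sum to 8.03 to 15.87 M (M, mega), and 100% of its values are whole multiples of 1 value per library (tolerance 0.01), so reads could be recovered. No source used here says how that value was set. In 17 rows the symbol had become a date, and these stayed unnamed. The authors also deposited counts per Ensembl gene for the 12 CEF and SCF libraries (23.4 to 53.4 M), without gene names, and tables of log2 fold changes, p-values and a test score, with a standard error, for 6424 genes per line.

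Changes come from limma 3.58.1 (trend, robust) on log2 of the value plus 1, over rows with 1 or more in at least 3 fitted libraries, with p adjusted by Benjamini and Hochberg over all rows tested. CEF and SCF groups were fitted together, all 6 CEF, SCF and CF groups for comparisons across the deposited sets, CF2, CF4, DF1 and SDF1 together, and FAT with CF2 and CF4. edgeR 4.0.16 (quasi-likelihood, TMM) and DESeq2 1.42.0 were run on recovered reads, and edgeR on the deposited counts. The number of genes each called is in the closing section. Other alternatives were a pseudocount of 0.1, no filter or a filter of 10, quantile normalization, fewer groups, a replicate block and leaving out each library. Folds use reads pooled over a group, against a floor of 3 reads where a group had 0. limma and edgeR were also run on simulated data, with changes set only in genes with a mean of 10 or more. That setting does not cover factors with a few reads.

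The lowest chi-square per gene between replicates was 2.27, and each library was counted as its own sample. Since reads are not independent molecules, this value cannot show that replicates came from separate cultures. The members and lists were chosen with earlier results of these data known. Named besides the members were up to 4 called genes with the smallest p-value per list and comparison, and the 5 genes most correlated with each member (group mean 10 or more). ACTA1 and ACTC1 in CEF4, MEF2A, MEF2D, DES, TNNI1 and other genes repeated in a second comparison were named from the same rule or chosen after their values were seen. The files' genome build was not at hand, so no coordinates or sequences are given. Software was Python 3.11.15 (matplotlib 3.10.9, scipy 1.17.1, pandas 2.3.3, numpy 2.4.6) and R 4.3.3.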

Additional observations from a re-analysis of the deposited data

Results flagged for a closer look

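Differences of 5 factors are listed because the change in line 4 (SCF4 minus CEF4) differed from that in line 2 (SCF2 minus CEF2) by a test of the difference itself. The log2 differences were 9.62 for MYOD1, 8.06 for MYOG, 6.34 for MYF5, 6.33 for MYF6 and 8.20 for PAX7 (limma adjusted p from 2.81e-09 to 3.87e-07). In line 2 every SCF2 library was below every CEF2 library for these 5 genes, and in line 4 CEF4 had 0 to 3 reads of each. Little or no fall was thus possible in line 4. MYOG, MYF5 and MYF6 passed the filter only through CEF2, so the filter set the sign of their difference. With edgeR on the recovered reads MYOG, MYF5 and MYF6 were not called (adjusted p = 1). Groups of 3 libraries are too small for a test of single libraries that lie far from the others.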

How the results depend on the processing

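Over 45 changes of single factors, the replicate block and no filter altered no call, nor did a filter of 10 for the 43 it kept. The replicate block left 7 factors called in SCF2 against CEF2, 3 in SCF4 against CEF4, 5 in CEF4 against CEF2 and 3 in FAT against CF4, and moved the gene counts little (8521, 8212, 4832 and 9407). The numbers do not pair the libraries, since residuals of equal numbers correlated at -0.334 to 0.162 and in no comparison were all 3 pairs over 0.1. Counts that moved by more than 1.5 times were few. When the fit held only the 2 groups of a comparison, 0 factors were called in SCF4 against SCF2 and 0 in SCF4 against CF4, since none then passed the filter. The counts without 1 library ran from 1 to 2 in each, and SCF4 against SCF2 gave 2 without SCF4 replicate 1. For the line difference edgeR called 2 factors. Without a filter 2 factors were called in SDF1 against DF1 and 5 in FAT against CF4, and DESeq2 also called 5 there, because more factors were tested. With only 2 groups fitted, 8442 genes were called in CF4 against CF2, in place of 5084, and 3619 in SDF1 against DF1, in place of 5667. The SDF1 count ran from 4664 to 8719 without 1 library, highest without DF1 replicate 3.

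Among the 7 factors, signs turned only for changes that were not called, while some called genes of the target lists turned with quantile normalization, as named with those lists. The line difference of PAX3 was -0.51 with a pseudocount of 0.1, -0.60 with quantile normalization, -2.59 with edgeR, -1.82 with DESeq2 and -0.18 without CEF4 replicate 3 (up to 0.74 without another library). That of MEF2C was 0.04, 0.12 and 0.17 with the pseudocount, edgeR and DESeq2. MEF2C in SCF4 against CF4 was 0.02 without SCF4 replicate 2 and 0.13 without CF4 replicate 1, and as low as -0.36 without another library. MYOD1 in SDF1 against DF1 was 0.18 with the pseudocount, 0.29 without DF1 replicate 1, 0.08 without SDF1 replicate 1 and -0.93 without DF1 replicate 3. The cause of these turns was not tested. edgeR on the deposited counts called 9440 genes in SCF2 against CEF2 and 9488 in SCF4 against CEF4, where limma called 8687 and 8361. On the recovered reads edgeR called 8160 and 8071 and 9196 in FAT against CF4, and DESeq2 called 8413, 8348 and 9889. Depth limits the factors that have a few reads, such as MYOD1 in SCF4 and CEF4.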
